A study of Homo sapiens with 16 samples.

Results

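Imprinted genes are expressed mainly from the copy inherited from the mother or mainly from the copy inherited from the father. The loci described here hold 10 such genes (H19, IGF2, KCNQ1OT1, CDKN1C, DLK1, MEG3, SNRPN, GNAS, PEG10 and NNAT) in 7 windows of the human genome, given on the build hg19. The members are all deposited peaks that touch a window, for 3 modifications of histone H3: H3K4me3, H3K27me3 and H3K9me2. A peak is a stretch of the genome that the authors called as enriched after chromatin immunoprecipitation and sequencing (ChIP-seq). Of 193384 peaks in 12 lists, 278 were members.

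The groups were MDA-MB-231, a human breast cancer line whose cells are labelled as derived from a metastatic site, and MCF-10A, a human breast epithelial line that does not form tumours and whose cells are labelled luminal ductal. Each mark was profiled in 2 replicates per line, labelled as biological, and 4 input libraries were not analysed here. Both lines came from laboratory stocks and were taken before confluence, with no treatment given in the labels. MCF-10A grew in DMEM/F12 without phenol red, with EGF, insulin, cholera toxin and hydrocortisone. The medium of MDA-MB-231 is given in the labels only by a citation. Each group is a single line, so line, culture medium and disease state cannot be told apart. The labelled cell types were not checked against marker genes, because no annotation of hg19 was used here. For the same reason peaks are given by their position in a window and are not assigned to a promoter or gene body.

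Imprinting rests on short control regions whose DNA methylation is set in the germ line and differs between the parental copies. At such regions H3K4me3, a mark of active and poised promoters, usually sits on the unmethylated copy, and H3K9 methylation, a mark of silenced chromatin, on the methylated copy. H3K27me3 is laid down by Polycomb repressive complex 2 and is found at silent developmental genes and over some imprinted domains. A peak list does not separate the parental copies, so a mark on 1 copy, on both copies or in a part of the cells gives the same kind of peak. Copy number was not measured here, and a gain or loss of DNA cannot be told apart from a change of a mark.

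DNA methylation in mammals falls mainly on the pair CG, and the promoter sequences shown here differ widely in it. RefSeq promoter sequences of GRCh38.p14 were matched for 4 of the 10 genes. The table held 1 entry for H19, 3 for MEG3, 4 for SNRPN and 6 for GNAS, and the entry with the most CG pairs is shown for each. All run from 250 bases before to 50 bases after the start of transcription, with CG in capitals, a motif that reads the same on both strands.
H19: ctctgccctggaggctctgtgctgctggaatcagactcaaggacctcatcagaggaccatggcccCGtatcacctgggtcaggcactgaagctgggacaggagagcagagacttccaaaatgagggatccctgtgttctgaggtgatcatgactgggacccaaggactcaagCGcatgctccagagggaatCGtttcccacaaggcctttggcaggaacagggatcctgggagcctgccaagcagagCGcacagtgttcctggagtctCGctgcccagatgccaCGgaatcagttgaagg
MEG3: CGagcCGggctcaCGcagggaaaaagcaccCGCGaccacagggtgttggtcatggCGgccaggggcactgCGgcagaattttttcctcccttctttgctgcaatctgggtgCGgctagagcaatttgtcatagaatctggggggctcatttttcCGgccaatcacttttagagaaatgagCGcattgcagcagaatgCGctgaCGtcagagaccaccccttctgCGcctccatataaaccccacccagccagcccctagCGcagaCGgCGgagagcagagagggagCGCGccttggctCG
SNRPN: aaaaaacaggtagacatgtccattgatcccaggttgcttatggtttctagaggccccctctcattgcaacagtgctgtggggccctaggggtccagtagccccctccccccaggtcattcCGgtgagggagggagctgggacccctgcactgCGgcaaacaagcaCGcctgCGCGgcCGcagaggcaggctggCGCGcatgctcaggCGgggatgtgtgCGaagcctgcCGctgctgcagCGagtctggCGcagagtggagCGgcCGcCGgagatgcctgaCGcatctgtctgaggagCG
GNAS: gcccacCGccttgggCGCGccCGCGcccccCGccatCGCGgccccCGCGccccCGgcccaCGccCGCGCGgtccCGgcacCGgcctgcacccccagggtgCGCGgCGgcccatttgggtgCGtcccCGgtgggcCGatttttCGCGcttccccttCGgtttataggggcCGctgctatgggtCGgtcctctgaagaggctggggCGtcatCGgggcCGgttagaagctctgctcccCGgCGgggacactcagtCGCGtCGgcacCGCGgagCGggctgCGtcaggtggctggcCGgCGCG
The H19 sequence lies at chr11:2001217-2001516 on the minus strand and holds 6 CG pairs, a number reached by 66.3% of 35116 RefSeq promoters of the same length. The MEG3 sequence (chr14:100825858-100826157, plus strand) holds 19, reached by 42.9%. The SNRPN sequence (chr15:24954737-24955036, plus strand) holds 18, reached by 44.5%. The GNAS sequence (chr20:58888930-58889229, plus strand) holds 43, reached by 4.98%. The median promoter holds 14, so the GNAS sequence shown is rich in CG and the H19 sequence is poor in it. The GNAS sequence was picked as the richest of 6 entries and H19 had only 1, so these ranks are not on equal terms. These positions belong to another build than the peaks, so the sequences were not laid over the peaks.

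The depth behind a peak is unknown, because the lists give no read counts. The H3K4me3 lists held 15625 to 16843 peaks and the H3K9me2 lists held 5080 to 10700. The H3K27me3 lists were uneven, with 8493 and 30564 peaks in MDA-MB-231, against 29014 and 29077 peaks in MCF-10A. The shortest list, MDA-MB-231 replicate 1, had 6.54 Mb under H3K27me3 peaks, and the other 3 lists of that mark had 19.6 to 21.5 Mb. Results for H3K27me3 are therefore given per replicate and, where a call rests on it, without that library. Relative coverage is the share of a window under peaks divided by the share of all chromosomes under peaks in the same library. It scales for the total cover of a list, but it need not remove every effect of list length. Windows were tested together with all other 100 kb bins of the genome with limma on log2(relative coverage + 0.1), which understates the change of low values, and called at a Benjamini-Hochberg adjusted p below 0.05. Exact permutation of 2 against 2 libraries cannot give a two-sided p below 0.333, so no such test of a single window can pass. Groups that do not overlap reach only this p of 0.333 by exact permutation. How many bins of the genome separate in this way was not counted, so such separation is given below as description only.

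By number of peaks H3K27me3 was the most common mark of these loci, and H3K9me2 reached the most windows. The longest H3K27me3 list also held more peaks over the genome, 30564 against at most 16843 for H3K4me3 and 10700 for H3K9me2. At least 1 list had an H3K9me2 peak in 6 of the 7 windows, against 4 for H3K27me3 and 4 for H3K4me3. The windows held 25 and 56 H3K27me3 peaks in MDA-MB-231, against 63 and 77 peaks in MCF-10A. They held 9 and 6 H3K4me3 peaks in MDA-MB-231, against 7 and 5 peaks in MCF-10A. They held 7 and 8 H3K9me2 peaks in MDA-MB-231, against 9 and 6 peaks in MCF-10A. Almost all H3K27me3 peaks lay in the 3 windows with paired genes, with 136 in the H19/IGF2 window, 52 in the KCNQ1OT1/CDKN1C window and 24 in the DLK1/MEG3 window. The GNAS window held the remaining 9 H3K27me3 peaks.

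**Figure D1:**
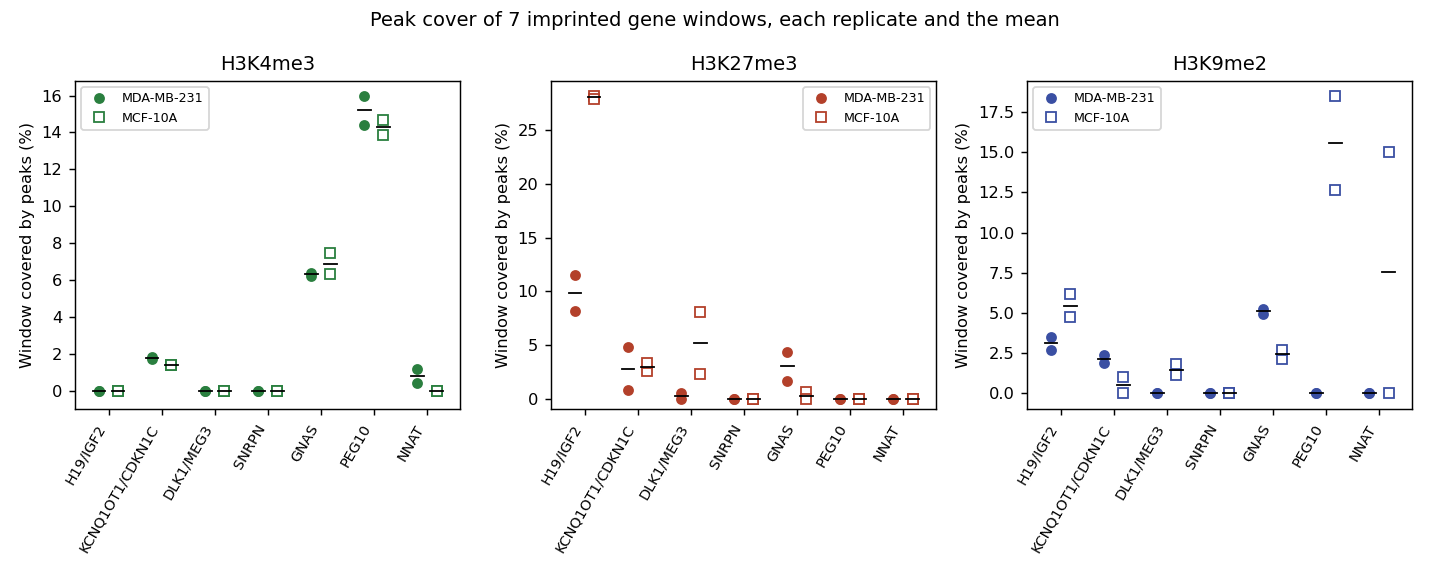
Share of each window covered by peaks (y axis, percent) for the 7 windows (x axis) and the 3 marks (panels). Filled circles are the 2 MDA-MB-231 libraries, open squares the 2 MCF-10A libraries, and bars the mean of 2. H3K27me3 in the H19/IGF2 window stands at 8.19% and 11.6% in MDA-MB-231 and at 28.2% and 28.0% in MCF-10A, and H3K9me2 in the PEG10 window is at 0 in both MDA-MB-231 libraries.

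Peaks of a mark that overlapped by at least 1 bp between libraries were merged into regions. A region found in both replicates of 1 line and neither of the other is called specific to that line, and a region found in all 4 libraries is called shared. Of 8 H3K4me3 regions in the windows, 1 was specific to MDA-MB-231, 1 was specific to MCF-10A and 5 were shared. Over all 18048 H3K4me3 regions of the series those classes took 6.27%, 5.91% and 68.5%, so most H3K4me3 at the imprinted loci was common to the lines, as it was elsewhere. Of 104 H3K27me3 regions, 3 were specific to MDA-MB-231, 13 were specific to MCF-10A and 6 were shared, against 2.99%, 11.1% and 1.77% of 66286 regions. Of 15 H3K9me2 regions, 3 were specific to MDA-MB-231, 4 were specific to MCF-10A and 1 was shared, against 9.12%, 23.4% and 5.3% of 18327 regions. The line-specific counts are small and are read only as descriptions of the named regions. Leaving out a library, which makes a class easier to enter, gave 2 H3K4me3 regions specific to MDA-MB-231 without its replicate 2. It gave 21, 18 and 15 H3K27me3 regions in the same 3 classes without MDA-MB-231 replicate 1, and 7, 22 and 10 without MDA-MB-231 replicate 2. Those specific to MCF-10A numbered 44 without MCF-10A replicate 1 and 32 without MCF-10A replicate 2. For H3K9me2, 6 were specific to MDA-MB-231 without its replicate 1, and 2 were shared without replicate 2 of either line. The shares over all regions given above belong to the rule with all 4 libraries, so the counts with a library left out are not set against the genome.

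The limma test could be run on 4 windows for H3K4me3, 4 for H3K27me3 and 5 for H3K9me2, those covered in at least 2 libraries. For H3K4me3, 1 window was called higher in MDA-MB-231, where 9.93% of all tested features were, and 0 were called higher in MCF-10A, against 8.94% (18.9% in either direction). At an unadjusted p below 0.05 those counts were 2 and 0. For H3K27me3, 0 windows were called in either direction, where 47.1% of features were called, 11.4% as higher in MDA-MB-231 and 35.7% as higher in MCF-10A. At an unadjusted p below 0.05, 1 H3K27me3 window was higher in MDA-MB-231 and 0 were higher in MCF-10A. For H3K9me2, 0 windows were called higher in MDA-MB-231, against 13.7%, and 2 were called higher in MCF-10A, against 50.1% (63.8% of features in either direction). At an unadjusted p below 0.05 the H3K9me2 counts were 1 and 2. Over all tested features the median log2 ratio was 0.0011 for H3K4me3, −1.80 for H3K27me3 and −3.87 for H3K9me2. Many features of the repressive marks had no peak in either MDA-MB-231 list, 34.1% for H3K27me3 and 49.7% for H3K9me2. Calls higher in MCF-10A were also common across the genome for these marks, and a link to such features was not tested. The windows called were covered in 1 line only, so they entered the test through that line.

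The H19/IGF2 window (chr11:2010000-2175000) was the locus most widely covered by H3K27me3. H19 is a maternally expressed non-coding RNA, and IGF2 is a paternally expressed fetal growth factor. They share enhancers and a control region between them at which the insulator protein CTCF binds the unmethylated maternal copy. RefSeq places H19 before IGF2 along the chromosome. H3K27me3 peaks covered 8.19% and 11.6% of the window in MDA-MB-231 libraries 1 and 2, against 28.2% and 28.0% in MCF-10A libraries 1 and 2. The means were 9.88% ± 2.39 in MDA-MB-231 and 28.1% ± 0.156 in MCF-10A (SD, n = 2 each). The groups did not overlap on this scale. Only 0.280% and 1.27% of 100 kb bins were covered as much as this window in MDA-MB-231, and 0.0461% and 0.0626% were in MCF-10A. By cover, the window thus ranked near the top of the genome in all 4 libraries.

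On relative coverage the lines came closer, and less so with lists cut to equal length. The relative coverage of H3K27me3 in the H19/IGF2 window was 38.0 and 17.9 in MDA-MB-231, against 39.7 and 39.7 in MCF-10A. MDA-MB-231 replicate 1 reached the MCF-10A level and replicate 2 did not, although replicate 1 had the lower unscaled cover and the shorter list. The log2 ratio was −0.60 (SE 0.439), with an adjusted p of 0.348 by limma, and the window was not called. Without MDA-MB-231 replicate 1, the library with the short list, the log2 ratio was −1.15, where the median over all tested features was −1.31. Without MDA-MB-231 replicate 2 the log2 ratio was −0.063, against a median of −3.36. The size of the difference thus rested on which MDA-MB-231 library was used. By limma it was −1.52 with an adjusted p of 0.0360 on unscaled cover, and −1.82 with an adjusted p of 0.00647 for peaks with a score of at least 100. With lists cut to equal length by score, the log2 ratio was −1.16, with an adjusted p of 0.0520 by limma. The median over all tested features was then −0.73. The score is a value that the authors attached to each peak, on a scale not stated in the labels or lists. The highest score of an H3K27me3 peak in this window was 114.56 and 269.8 in MDA-MB-231, against 585.11 and 611.38 in MCF-10A. These top peaks stood at the 95.5 and 98.6 percentile of their own lists in MDA-MB-231 and at the 99.2 and 99.5 percentile in MCF-10A.

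The difference in H3K27me3 cover between the lines was uneven along the H19/IGF2 window. In the first 50 kb, H3K27me3 covered 18.5% and 22.6% in MDA-MB-231, against 29.2% and 28.0% in MCF-10A. From 50 to 110 kb it covered 0% and 0.96% in MDA-MB-231, against 14.6% and 14.3% in MCF-10A. From 110 kb to the window's end it covered 7.73% and 13.1% in MDA-MB-231, against 42.1% and 42.8% in MCF-10A. In percentage points the lines were closest in the first 50 kb and furthest apart in the last stretch, and as a ratio they were furthest apart from 50 to 110 kb. In steps of 10 kb, both MDA-MB-231 libraries lay below both MCF-10A libraries in 12 of 17 steps and above them in 0. The 5 steps from 60 to 110 kb held no H3K27me3 peak in either MDA-MB-231 library, whereas cover in MCF-10A reached 31.9% there. Scaling by the total cover of each list changed part of this picture. In the first 50 kb the relative coverage was 86.0 and 34.9 in MDA-MB-231, against 41.1 and 39.8 in MCF-10A, so the MDA-MB-231 replicates lay on either side of MCF-10A. From 50 to 110 kb it was 0 and 1.49 in MDA-MB-231, against 20.6 and 20.3 in MCF-10A, and beyond 110 kb it was 35.9 and 20.3 in MDA-MB-231, against 59.3 and 60.9 in MCF-10A. On this scale both MDA-MB-231 libraries lay below both MCF-10A libraries in 10 of 17 steps and above them in 1. Such steps were not counted over the rest of the genome, where the median log2 ratio of H3K27me3 was −1.80. Neither count therefore sets this window apart.

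**Figure D2:**
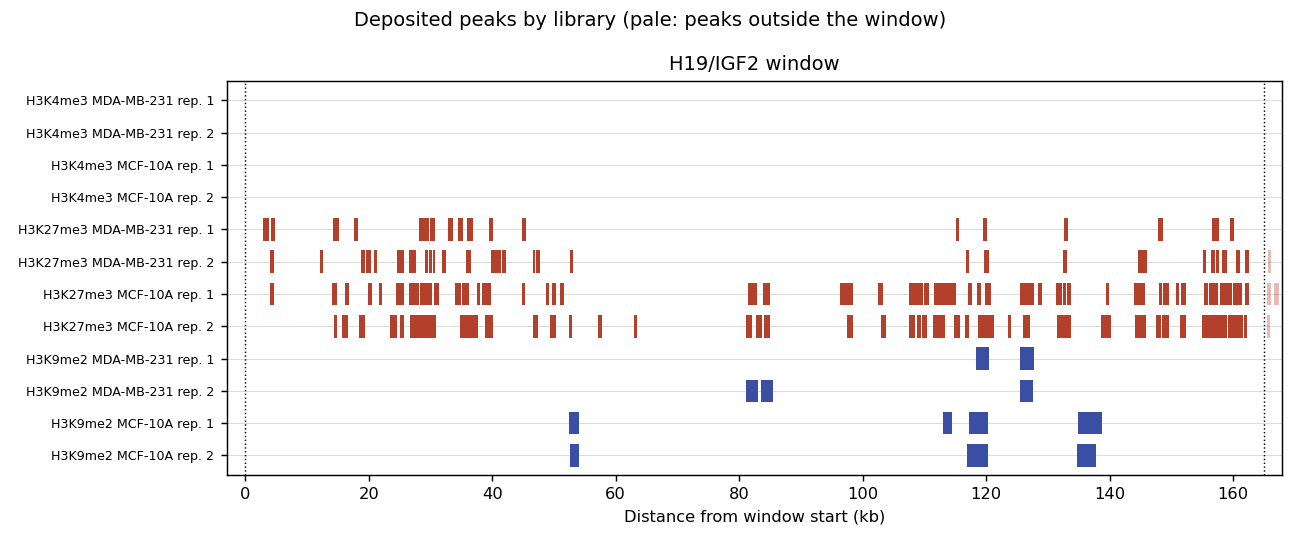
Deposited peaks in the H19/IGF2 window, with 1 row per library and distance from the window start in kb (x axis); dotted lines mark the window, and pale bars are peaks outside it. H3K27me3 (red) has a gap from 60 to 110 kb in MDA-MB-231, with 18 and 28 peaks in the window, and is spread more widely in MCF-10A, with 46 and 44 peaks. H3K9me2 (blue) of MDA-MB-231 replicate 1 and of both MCF-10A libraries overlaps near 120 kb and otherwise lies at separate places, and the H3K4me3 rows are empty.

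All 6 shared H3K27me3 regions of the imprinted loci were in the H19/IGF2 window. The widest, chr11:2164980-2171536, lay 155.0 to 161.5 kb from the window start. H3K27me3 peaks spanned 1762 and 3030 bp of it in MDA-MB-231, against 5711 and 6413 bp in MCF-10A. A second shared region, chr11:2036457-2041461, was spanned over 2339 and 2512 bp in MDA-MB-231, against 4515 and 4020 bp in MCF-10A. The next in width, chr11:2044030-2048105, was spanned over 1686 and 785 bp in MDA-MB-231, against 2573 and 2928 bp in MCF-10A. In all 3 the peaks of both MDA-MB-231 libraries spanned fewer bases than those of both MCF-10A libraries. The fourth by mean width, chr11:2141284-2143744, showed 647 and 608 bp in MDA-MB-231 and 2144 and 2332 bp in MCF-10A. When a library had to cover 50% of a region to count, 0 of the H3K27me3 regions were shared.

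A further 10 H3K27me3 regions of the H19/IGF2 window were specific to MCF-10A. The widest was chr11:2117474-2120723, with 3069 and 2355 bp in MCF-10A. It was followed by chr11:2135459-2137815, with 2312 and 1185 bp, chr11:2091118-2093736, with 1470 and 1947 bp, and chr11:2106387-2108499, with 2113 and 987 bp in MCF-10A. Both MDA-MB-231 libraries were at 0 in these regions. The highest score per MCF-10A library in these 4 regions ran from 121.85 to 323.66, and single peaks there went down to 75.42.

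H3K4me3 was listed at 0 in the H19/IGF2 window in all 4 libraries. The nearest H3K4me3 peak after the window lay 115298 and 115283 bp away in MDA-MB-231, against 223589 and 223206 bp in MCF-10A. On the other side the nearest one lay 40308 and 40589 bp before the window in MDA-MB-231. A 100 kb bin without any H3K4me3 peak was common, at 66.4% of 30348 bins.

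H3K9me2 marked the H19/IGF2 window at places that differed between the lines, apart from 1 region. It covered 2.71% and 3.53% of the window in MDA-MB-231, against 6.20% and 4.73% in MCF-10A, with a log2 ratio of relative coverage of −0.36 (SE 0.424) and an adjusted p of 0.516 by limma. The region specific to MDA-MB-231, chr11:2135437-2137766, held peaks of 2330 and 2000 bp with scores of 70.18 and 63.49. It overlapped an H3K27me3 region specific to MCF-10A, by 2263 bp in MCF-10A replicate 1 and 1185 bp in MCF-10A replicate 2, and no H3K27me3 peak of MDA-MB-231. The stretch thus carried H3K9me2 in the MDA-MB-231 lists and H3K27me3 in the MCF-10A lists. The H3K9me2 regions specific to MCF-10A were chr11:2144789-2148764, with peaks of 3939 and 3008 bp, and chr11:2062411-2064144, with peaks of 1734 and 1482 bp. At the region common to the lines, chr11:2126982-2130490, H3K9me2 peaks spanned 2138 bp in MDA-MB-231 replicate 1 and 3087 and 3308 bp in MCF-10A, with no peak in MDA-MB-231 replicate 2.

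The KCNQ1OT1/CDKN1C window (chr11:2620000-2910000) lies on the same chromosome arm. KCNQ1OT1 is a long non-coding RNA transcribed from the paternal copy that silences its neighbours, and CDKN1C, which encodes the cyclin-dependent kinase inhibitor p57, is expressed from the maternal copy. RefSeq places KCNQ1OT1 before CDKN1C. H3K4me3 was present at 2 shared regions. The first, chr11:2719696-2722108, was spanned over 2080 and 2345 bp in MDA-MB-231, against 2088 and 2136 bp in MCF-10A. The second, chr11:2904981-2907273, held 2071 and 2089 bp in MDA-MB-231, against 1924 and 1969 bp in MCF-10A. The spans differed little at either. The highest scores in the second region were 1774.3 and 2583.36 in MDA-MB-231, against 608.04 and 1304.13 in MCF-10A.

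A further H3K4me3 region, chr11:2812530-2813453, was specific to MDA-MB-231, with peaks over 495 and 924 bp and top scores of 103.65 and 265.95. H3K27me3 peaks overlapped that region by 0 and 285 bp in MDA-MB-231, and by 219 and 216 bp in MCF-10A. These overlaps lay at opposite ends of the region. The H3K27me3 peak of MDA-MB-231 replicate 2 ended at position 2812814, and those of MCF-10A began at 2813235 and 2813238. H3K27me3 thus reached only the edges of the region, at different bases in the lines. H3K4me3 covered 1.73% and 1.85% of the window in MDA-MB-231, against 1.38% and 1.42% in MCF-10A. The groups did not overlap, but the log2 ratio of 0.29 (SE 0.101) had an adjusted p of 0.149 by limma.

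H3K27me3 in the KCNQ1OT1/CDKN1C window varied more between the MDA-MB-231 replicates than between the lines. It covered 0.824% and 4.78% of the window in MDA-MB-231, against 2.56% and 3.34% in MCF-10A, from 4 and 22 peaks in MDA-MB-231 and 11 and 15 peaks in MCF-10A. The MCF-10A values fell between those of the MDA-MB-231 replicates. The log2 ratio was 0.35 (SE 0.511) with an adjusted p of 0.632 by limma, and its sign turned to −0.51 on unscaled cover. Leaving out MDA-MB-231 replicate 1 gave 0.82, with an adjusted p of 0.146, and leaving out MDA-MB-231 replicate 2 gave −0.11, with an adjusted p of 0.803. The 2 regions specific to MDA-MB-231, chr11:2736537-2737454 with 710 and 826 bp and chr11:2745494-2746064 with 421 and 562 bp, had scores of 62.53 to 85.9, and neither was left among peaks with a score of at least 100.

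H3K9me2 covered 2.39% and 1.87% of the KCNQ1OT1/CDKN1C window in MDA-MB-231, against 1.05% and 0% in MCF-10A. Both MDA-MB-231 libraries lay above both MCF-10A libraries. The log2 ratio was 3.61 (SE 1.73), with an adjusted p of 0.185 by limma, and the window was not called. Leaving out MCF-10A replicate 2 gave 1.54, with an adjusted p of 0.249. Leaving out MCF-10A replicate 1 put MCF-10A at 0, with an adjusted p of 0.139. The regions specific to MDA-MB-231 were chr11:2684171-2685930, with peaks of 1745 and 1694 bp, and chr11:2841894-2843912, with peaks of 2000 and 1925 bp. A region close to the second, chr11:2834363-2837536, held peaks of 1689 and 1813 bp in MDA-MB-231 and of 3049 bp in MCF-10A replicate 1.

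**Figure D3:**
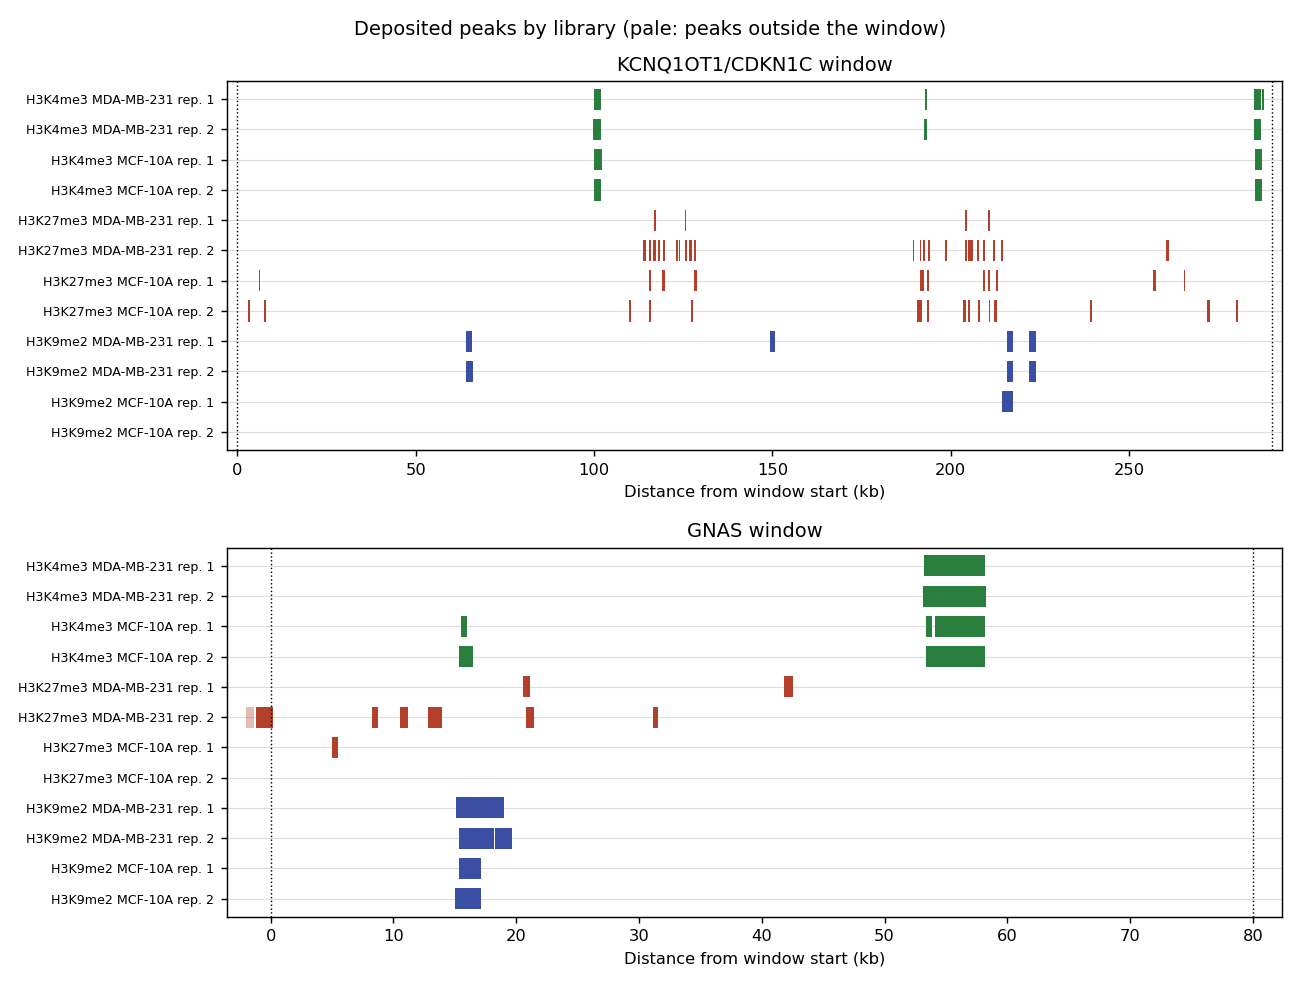
Deposited peaks in the KCNQ1OT1/CDKN1C window (top) and the GNAS window (bottom), with 1 row per library and distance from the window start in kb (x axis); dotted lines mark the window, and pale bars are peaks outside it. The 2 shared H3K4me3 regions (green) of the upper panel and the 1 of the lower panel line up in all 4 libraries. The H3K9me2 region (blue) of the GNAS window spans 3975 and 4223 bp in MDA-MB-231 and 1725 and 2151 bp in MCF-10A.

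The GNAS window (chr20:57410000-57490000) carried a broad shared H3K4me3 region, and both repressive marks covered more of it in each MDA-MB-231 library than in either MCF-10A library. GNAS encodes the stimulatory G protein alpha subunit, and its locus also gives maternally, paternally and biallelically expressed transcripts from alternative promoters. The shared H3K4me3 region, chr20:57463130-57468239, held peaks over 5000 and 5110 bp in MDA-MB-231, against 4539 and 4844 bp in MCF-10A. It was the widest H3K4me3 region of the imprinted loci, and its top scores were 3100 and 3100 in MDA-MB-231, against 2493.67 and 3100 in MCF-10A. A second H3K4me3 region, chr20:57425329-57426463, was specific to MCF-10A, with peaks over 522 and 1135 bp and scores of 176.68 and 708.36. Over the whole window H3K4me3 covered 6.25% and 6.39% in MDA-MB-231, against 6.33% and 7.47% in MCF-10A. The groups overlapped, and the log2 ratio was −0.17 (SE 0.0599) with an adjusted p of 0.163 by limma.

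The H3K4me3 region specific to MCF-10A lay inside the only shared H3K9me2 region of the imprinted loci, chr20:57425006-57429659. H3K9me2 peaks overlapped it by 1135 and 1112 bp in MDA-MB-231, which had no H3K4me3 peak there, and by 1089 and 1135 bp in MCF-10A. The MCF-10A lists thus held H3K4me3 and H3K9me2 at the same place in both replicates, and the MDA-MB-231 lists held H3K9me2 alone. The top H3K9me2 scores there were 126.87 and 70.51 in MDA-MB-231, against 84.96 and 53.58 in MCF-10A. These MCF-10A peaks stood at the 68.7 and 13.9 percentile of their own lists, so the overlap in replicate 2 rested on a low-scoring peak. Among peaks with a score of at least 100, the overlap in MCF-10A was 0. The whole H3K9me2 region was spanned over 3975 and 4223 bp in MDA-MB-231, against 1725 and 2151 bp in MCF-10A. H3K9me2 covered 4.97% and 5.28% of the window in MDA-MB-231, against 2.16% and 2.69% in MCF-10A, with no overlap of the groups. The log2 ratio of relative coverage was 1.51 (SE 0.425), with an adjusted p of 0.0604 by limma. The adjusted p was 0.0367 on unscaled cover, 0.0383 without MDA-MB-231 replicate 1 and 0.112 without MDA-MB-231 replicate 2, and scaling within the chromosome turned the log2 ratio to −1.24, with an adjusted p of 0.162.

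H3K27me3 covered 1.69% and 4.39% of the GNAS window in MDA-MB-231, from 2 and 6 peaks, against 0.585% and 0% in MCF-10A, from 1 and 0 peaks. Both MDA-MB-231 libraries lay above both MCF-10A libraries, whereas H3K27me3 cover of the H19/IGF2 and DLK1/MEG3 windows was lower in both. Such separation was not counted over the genome, where 47.1% of H3K27me3 features were called in either direction. The log2 ratio was 4.61 (SE 1.35), with an adjusted p of 0.0799 by limma. Leaving out MDA-MB-231 replicate 1 gave 4.50, leaving out MDA-MB-231 replicate 2 gave 4.71, and leaving out MCF-10A replicate 2 gave 3.00. Leaving out MCF-10A replicate 1 put MCF-10A at 0. With a pseudocount of 0.5 the adjusted p was 0.0273. Scaled within the chromosome the log2 ratio was 2.59, with an adjusted p of 0.133, and on unscaled cover the adjusted p was 0.132. The region specific to MDA-MB-231, chr20:57430541-57431425, held peaks of 593 and 653 bp and lay just past the shared H3K9me2 region.

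The DLK1/MEG3 window (chr14:101190000-101330000) held repressive marks in MCF-10A that were largely missing from the MDA-MB-231 lists. DLK1 is a paternally expressed transmembrane protein of the Notch ligand family, and MEG3 is a maternally expressed long non-coding RNA. RefSeq places DLK1 before MEG3. H3K9me2 had 0 peaks in either MDA-MB-231 library and covered 1.82% and 1.12% of the window in MCF-10A. This was a call by limma, with an adjusted p of 0.000392, in a direction that 50.1% of all tested features shared. The window entered the test through its MCF-10A libraries alone, and MDA-MB-231 at 0 in both has no spread. The p-value is therefore no separate support for a difference. The MCF-10A cover came from a single region at the end of the window, chr14:101327449-101331422, with peaks of 3857 and 2994 bp and scores of 164.08 and 124.29. It crossed the window's end, and 2552 and 1572 bp of its peaks lay inside.

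H3K27me3 covered 0.518% and 0% of the DLK1/MEG3 window in MDA-MB-231, from 1 and 0 peaks, against 2.29% and 8.13% in MCF-10A, from 5 and 18 peaks. The groups did not overlap, but the MCF-10A replicates differed widely. The log2 ratio was −3.64 (SE 2.05), with an adjusted p of 0.252 by limma. Without MDA-MB-231 replicate 1, or for peaks with a score of at least 100, MDA-MB-231 was at 0 and the window entered the test through MCF-10A alone. For those scores the adjusted p was 0.00109 by limma. Leaving out MDA-MB-231 replicate 2 gave a log2 ratio of −1.31, with an adjusted p of 0.244, and leaving out MCF-10A replicate 2 gave −2.73, with an adjusted p of 0.800. Against a line at 0 no ratio is given. MDA-MB-231 replicate 2 had H3K27me3 peaks outside the window, the nearest ending 1202 bp before it, and with the window widened by 5 kb the log2 ratio was −1.92 with an adjusted p of 0.0984. The regions specific to MCF-10A were chr14:101193353-101194255, with peaks of 819 and 502 bp, chr14:101232118-101232706, with 580 and 455 bp, and chr14:101239028-101240465, with 957 and 1438 bp. No H3K4me3 peak was listed in this window in any of the 4 libraries.

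The PEG10 window (chr7:94280000-94300000) combined a shared H3K4me3 region with an H3K9me2 region seen in MCF-10A lists alone. PEG10 is a paternally expressed gene derived from a retrotransposon, and RefSeq places SGCE, another paternally expressed gene, just before it. H3K4me3 covered 14.4% and 16.0% of the window in MDA-MB-231, against 13.9% and 14.7% in MCF-10A. All of it lay in chr7:94284119-94287315, spanned over 2884 and 3197 bp in MDA-MB-231 and over 2776 and 2937 bp in MCF-10A. The groups overlapped, and the log2 ratio was 0.04 (SE 0.0689) with an adjusted p of 0.741 by limma. Top scores there were 813.06 and 1580.38 in MDA-MB-231, against 1595.62 and 2909.86 in MCF-10A.

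H3K9me2 was listed at 0 in the PEG10 window in both MDA-MB-231 libraries, against 12.6% and 18.5% in MCF-10A. The MCF-10A peaks, in chr7:94292686-94296508, spanned 2529 and 3702 bp with scores of 151.6 and 146.27. Limma gave an adjusted p of 0.000978, in the direction that 50.1% of tested features shared. Here too only the MCF-10A libraries brought the window into the test, and MDA-MB-231 at 0 in both has no spread. The p-value adds no separate support. The region began more than 5 kb past the H3K4me3 region, so the marks did not overlap. H3K27me3 was listed at 0 in this window in all 4 libraries.

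**Figure D4:**
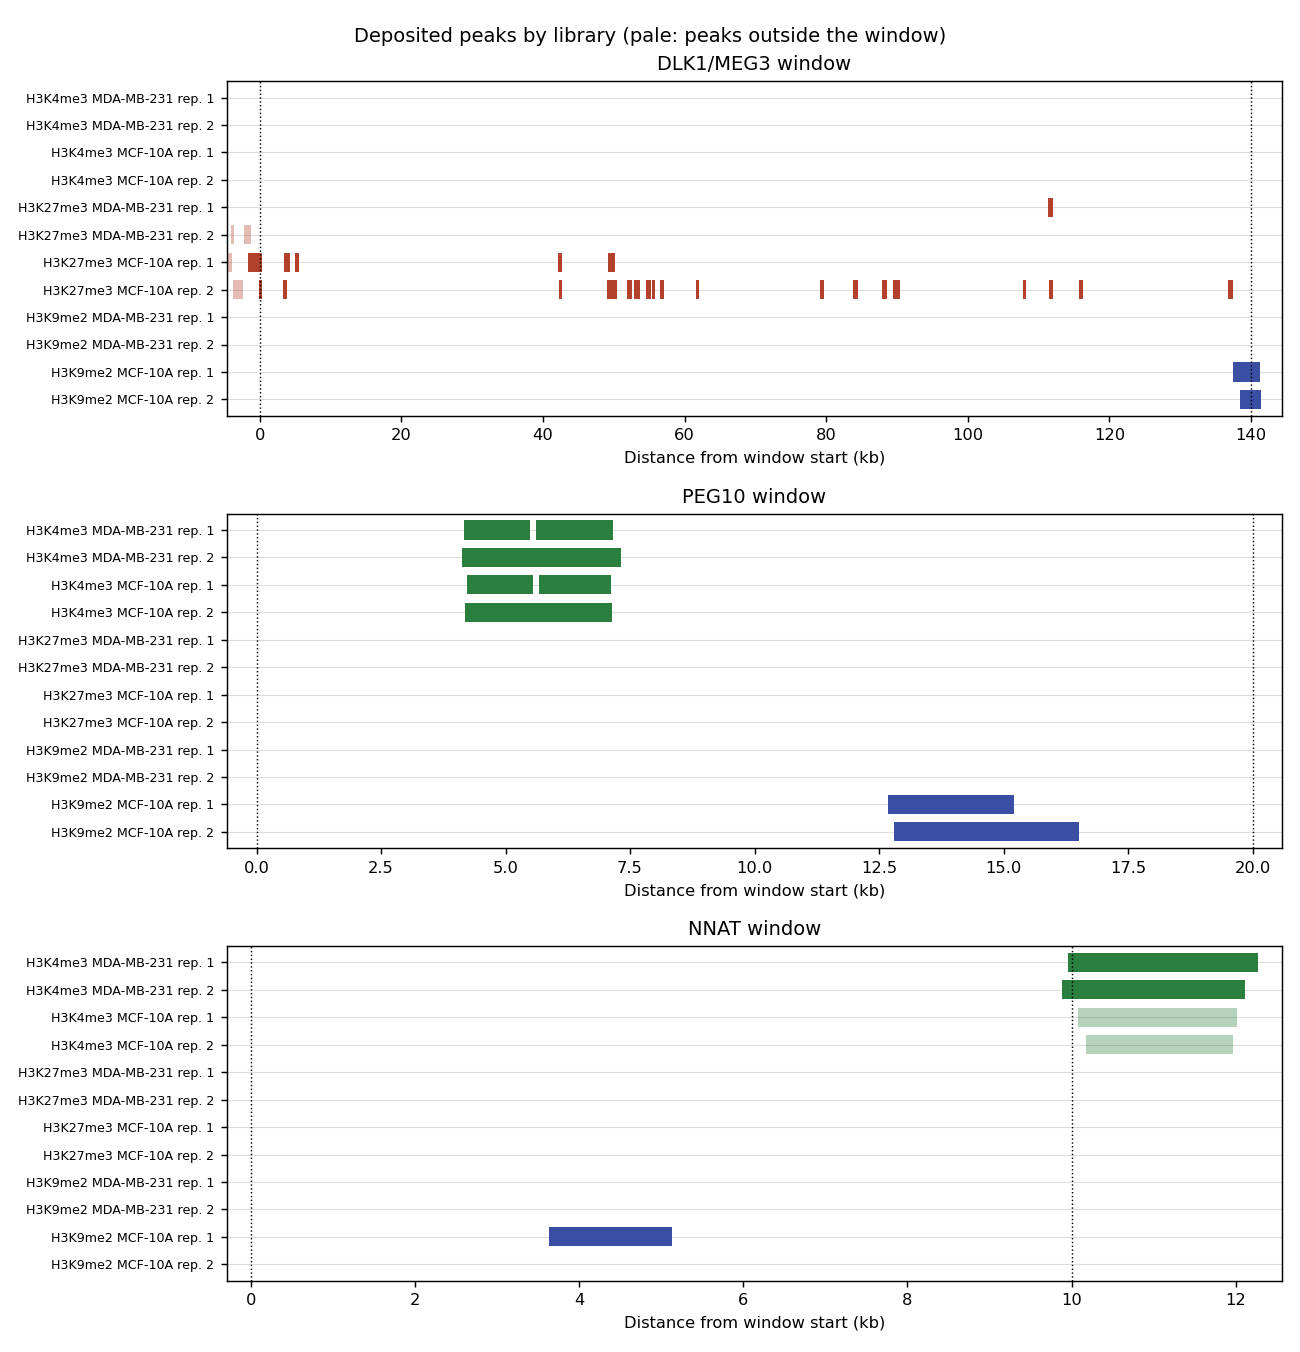
Deposited peaks in the DLK1/MEG3, PEG10 and NNAT windows, with 1 row per library and distance from the window start in kb (x axis); dotted lines mark the window, and pale bars are peaks outside it. H3K9me2 (blue) at the end of the DLK1/MEG3 window and in the PEG10 window appears in both MCF-10A libraries and in neither MDA-MB-231 library. The H3K4me3 peaks (green) at the end of the NNAT window reach 41 and 117 bp into it in MDA-MB-231 and start 78 and 172 bp past it in MCF-10A.

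The NNAT window (chr20:36145000-36155000) held the only H3K4me3 call, and that call rested on the window's edge. NNAT encodes neuronatin, a paternally expressed membrane protein of brain and endocrine cells, and RefSeq places it inside the gene BLCAP. An H3K4me3 region at the window's end, chr20:36154884-36157270, was shared, with peaks of 2311 and 2232 bp in MDA-MB-231, against 1939 and 1800 bp in MCF-10A. Only the MDA-MB-231 peaks reached into the window, by 41 and 117 bp, and the MCF-10A peaks began 78 and 172 bp past its end. The adjusted p of 0.0203 by limma compares this cover of 0.410% and 1.17% in MDA-MB-231 with 0 in MCF-10A. The window entered the test through MDA-MB-231 alone. With the window widened by 5 kb the log2 ratio was 0.23, with an adjusted p of 0.214, and the call was lost. H3K27me3 was listed at 0 in all 4 libraries, and H3K9me2 had 1 peak, of 1505 bp, in MCF-10A replicate 1.

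The SNRPN window (chr15:25065000-25230000) held no peak of any mark in any of the 12 lists used here. SNRPN is a paternally expressed gene of the Prader-Willi region that encodes a splicing protein. The gap was much wider than the window. No list had a peak between positions 23811923 and 25682885 of chromosome 15, a stretch of 1.87 Mb. For H3K27me3 the gap ran over 5.002 Mb and for H3K9me2 over 5.04 Mb. Of the 30348 bins of 100 kb, 37.1% held no peak of any mark. Absence from the lists used here does not show that the marks are absent from SNRPN.

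The overlap of marks was counted within each line. In MDA-MB-231, of 6 H3K4me3 regions found in both replicates, 0 overlapped such an H3K27me3 region and 0 an H3K9me2 region, and of 5 H3K9me2 regions 0 overlapped H3K27me3. Over all chromosomes the MDA-MB-231 shares were 0.502%, 0.174% and 14.3%. In MCF-10A, 0 of 5 H3K4me3 regions overlapped H3K27me3, 1 of 5 overlapped H3K9me2, the region in the GNAS window, and 2 of 6 H3K9me2 regions overlapped H3K27me3. Over all chromosomes the MCF-10A shares were 2.12%, 1.54% and 7.54%. With 5 or 6 regions per line, a share cannot be set apart from these backgrounds.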

How the data were processed

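ChIP-seq of H3K4me3, H3K27me3 and H3K9me2 was compared between MDA-MB-231 and MCF-10A, with 2 libraries per mark and line. Each deposited list gives chromosome, start, end, name and a score per peak in 5 columns. The score was set by the authors on a scale not stated in the labels or lists. It started at 50 in every list and served only to describe or filter peaks. Per the submitters' processing notes the build was hg19 and the tools included MACS 1.4, Bowtie2, bedtools and CASAVA 1.6, with no roles stated. Lists are per replicate, and no source used here says whether the inputs were controls for them. Depth is unknown.

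Peaks on chromosomes 1 to 22 and X were used, with coordinates counted from 1. Regions are peaks merged at an overlap of 1 bp or more. Relative coverage of the 7 windows and of all 100 kb bins outside them, covered in at least 2 of 4 libraries, was tested with limma 3.58.1 (trend, empirical Bayes; R 4.3.3) with a pseudocount of 0.1, and p-values were adjusted by the Benjamini-Hochberg method over all features of a mark. Folds were left out where a line had no peak. Replicates are labelled biological without further detail, so p-values measure only the spread between these samples. Other steps used Python 3.11.15, NumPy 2.4.6, pandas 2.3.3 and matplotlib 3.10.9.

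The alternatives were pseudocounts of 0.02 and 0.5, no filter on coverage, unscaled cover, scaling within the chromosome, bins of 50 and 250 kb, scores of at least 100, equal list lengths, the replicate number as a block, presence by 50% cover or in either replicate, and each library left out. Windows widened by 5 kb were added after the data were seen. All windows are described for all marks. Regions were named when both replicates of a line held them, up to the 4 widest by mean per class and window. Members, lists and tests were chosen with earlier results of these data known. Other imprinted genes were not analysed here, since no hg19 annotation was used. RefSeq tables of GRCh38.p14 gave only gene order and promoter sequences.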

Additional observations from a re-analysis of the deposited data

How the results depend on the processing

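Of 186 repeats of single windows under other settings, 163 kept their direction and their side of the threshold, 13 passed it newly, 2 no longer passed it and 8 changed sign. Repeats in which a window could no longer be tested are not among the 186. Those include all called windows when either library of the line that covered them was left out. The sign changes were all in windows without a call. For H3K27me3 in the KCNQ1OT1/CDKN1C window the log2 ratio became −0.51 on unscaled cover, −0.51 when scaled within the chromosome, −2.33 for scores of at least 100, and −0.31 at equal list lengths, and it ran from −0.11 to 0.82 with a library left out. With a library left out it ran from −0.030 to 0.11 for H3K4me3 in the PEG10 window, below 0 without MDA-MB-231 replicate 2, and from −0.81 to 0.090 for H3K9me2 in the H19/IGF2 window, above 0 without MDA-MB-231 replicate 1. It became −1.24 for H3K9me2 in the GNAS window when scaled within the chromosome. The H3K9me2 difference of the H19/IGF2 window passed the threshold for scores of at least 100, where MDA-MB-231 was at 0 (adjusted p 7.32e-05), and the H3K4me3 difference of the GNAS window passed it when scaled within the chromosome (log2 ratio −0.31, adjusted p 0.0471). The cause of these changes was not tested.

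Calls with a library left out are not counted here, since 1 line then has a single library. Windows called for H3K4me3 as higher in MDA-MB-231 numbered 0 with windows widened by 5 kb, where 939 of 9468 tested features were called. When scaled within the chromosome, 1 was called higher in MCF-10A, as were 784 of 9468 features. The NNAT call had an adjusted p of 0.0642 without MCF-10A replicate 1, and without either MDA-MB-231 replicate the window could not be tested, since 1 library covered it. For H3K27me3, 1 window was called higher in MDA-MB-231 with a pseudocount of 0.5, as were 913 of 7358 features. As higher in MCF-10A, 1 was called on unscaled cover, as were 2693 of 7358 features. For scores of at least 100, 2 were called, as were 1427 of 2945 features. For H3K9me2, 1 window was called higher in MDA-MB-231 on unscaled cover, as were 795 of 6387 features. With bins of 250 kb, 1 was called, as were 593 of 4814 features. When either MCF-10A replicate was left out, the PEG10 and DLK1/MEG3 windows, called higher in MCF-10A, were covered in 1 library and could not be tested.

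Region counts changed with the rule for presence, and they are given here without the share over all regions under the same rule. With either replicate of a line enough, H3K27me3 regions numbered 25 for MDA-MB-231 alone, 46 for MCF-10A alone and 33 shared, H3K9me2 regions 6 for MDA-MB-231 alone and 3 shared, and H3K4me3 regions 2 for MDA-MB-231 alone. With 50% cover, 0 H3K27me3 regions and 0 H3K9me2 regions were shared, and 0 H3K4me3 regions were specific to MCF-10A. For scores of at least 100, 0 H3K27me3 and 0 H3K9me2 regions were specific to MDA-MB-231 and 0 of either mark were shared. At equal list lengths 0 H3K9me2 regions were shared. With a library left out, 1 to 2 H3K4me3 regions were specific to MDA-MB-231. For H3K27me3, 4 to 21 were specific to MDA-MB-231, 18 to 44 to MCF-10A and 8 to 15 were shared. For H3K9me2, 3 to 6 were specific to MDA-MB-231 and 1 to 2 were shared. The H3K4me3 overlap with H3K27me3 in MDA-MB-231 was 1 with either replicate, and that of H3K9me2 with H3K27me3 was 1. In MCF-10A the overlap of H3K4me3 with H3K9me2 was 0 for scores of at least 100, and that of H3K9me2 with H3K27me3 was 1 for those scores and 4 with either replicate.

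Replicate numbers did not mark pairs in the labels. The difference of replicate 1 from replicate 2 in MDA-MB-231 was correlated with the same difference in MCF-10A over the tested features. The correlation was 0.170 for H3K4me3 (9468 features), 0.00479 for H3K27me3 (7358 features) and 0.0261 for H3K9me2 (6387 features). With the replicate block the calls were unchanged in all windows tested: the adjusted p was 0.0114 for H3K4me3 in the NNAT window, 0.00629 and 0.00245 for H3K9me2 in the PEG10 and DLK1/MEG3 windows, 0.239 for H3K27me3 in the H19/IGF2 window and 0.0749 in the GNAS window. With 2 libraries per group and no read counts, differences below the spread of the replicates, and the levels of peaks below the authors' threshold, could not be seen.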
